A study of Mus musculus with 9 samples.

Results

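Interferon-stimulated and nucleic acid sensing genes were followed through brain RNA from mice after intracerebral hemorrhage (ICH) with and without the compound P7C3-A20. The set held 46 genes of the 35112 in the deposited expression table, taken by gene symbol from a list of the response's genes, and all 46 were present. Brains came from wild-type C57BL/6 mice in 3 groups of 3: sham, ICH, and ICH+P7C3-A20, the last being hemorrhage with P7C3-A20 given. All were taken 72 hours after treatment, and the design text has 3 mice drawn at random from each group for sequencing, so each library was read as 1 mouse. P7C3-A20 is an aminopropyl carbazole studied as a neuroprotective compound. The brain region, the age of the mice and the way the hemorrhage was made were not given in the sources used here. Polyadenylated RNA was made into stranded libraries of 51537047 to 63324728 estimated counts. Levels are given as FPKM, fragments per kilobase of transcript and library total, which allows comparison between genes of different length. Changes are log2 changes from edgeR with their standard errors, and a gene was called at a Benjamini-Hochberg adjusted p under 0.05 over 21900 genes tested. Libraries are written with their replicate number, such as ICH 2, and triplets of values run in the order of replicates 1, 2 and 3.

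Type I and type III interferons bind cell surface receptors whose kinases phosphorylate STAT proteins. STAT2 and IRF9 belong to the transcription complex that then binds the interferon-stimulated response element of target promoters. The induced proteins include sensors that recognise foreign or misplaced RNA and DNA, enzymes that degrade or modify nucleic acids, and ubiquitin-like modifiers. In brain the response is carried by microglia, astrocytes, neurons, vessel cells and infiltrating leukocytes, and it is known from infection, ageing and sterile injury.

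The members were spread over 15 chromosomes, with several families in tandem. The 4 Ifit genes lay side by side on chromosome 19, between 34550694 and 34650009. All 5 Oas members were on chromosome 5, the PYHIN genes Ifi204, Ifi207 and Ifi209 were neighbours on chromosome 1, and Parp9, Parp14 and Dtx3l were adjacent on chromosome 16. Positions are those of the deposited table, in which 41 of the 46 members had the identical position in GENCODE M21 (GRCm38). Promoter windows from RefSeq (GRCm38.p6, 250 bases before each gene's start) were available for 35 members in 41 windows. The core repeat of the interferon-stimulated response element, GAAANNGAA on either strand, was in the windows of 15 of these 35 members, or 42.9%. The same letters were in 7.13% of 32851 promoter windows of all genes and in 8.18% of genes with a window. The STAT dimer motif TTCNNNGAA, a palindrome, was found in 5 members, or 14.3%, against 8.13% of genes. The 15 members with the repeat had a median log2 change of 1.60 in ICH against sham, and the 20 without it 1.34, both described here with no test. The 10 stretches below come from members that the results turn on and are printed 5′ to 3′ on the gene's strand, with every match to the repeat in capitals, so that the element can be seen beside the gene's values.
Stat2: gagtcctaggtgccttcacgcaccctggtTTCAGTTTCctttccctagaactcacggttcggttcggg
Ifit1: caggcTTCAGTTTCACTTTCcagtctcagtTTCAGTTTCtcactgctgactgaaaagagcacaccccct
Ifit3: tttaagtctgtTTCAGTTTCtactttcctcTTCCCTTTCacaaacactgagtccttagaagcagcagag
Ifit3b: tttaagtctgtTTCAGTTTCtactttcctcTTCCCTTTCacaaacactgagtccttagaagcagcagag
Ifih1: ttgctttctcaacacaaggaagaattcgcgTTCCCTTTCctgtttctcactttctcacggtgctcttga
Ifi207: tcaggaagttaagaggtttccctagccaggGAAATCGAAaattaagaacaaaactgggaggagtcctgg
Oas1a: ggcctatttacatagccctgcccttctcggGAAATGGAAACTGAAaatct
Oas3: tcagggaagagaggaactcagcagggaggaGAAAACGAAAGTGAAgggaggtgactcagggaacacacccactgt
Isg15: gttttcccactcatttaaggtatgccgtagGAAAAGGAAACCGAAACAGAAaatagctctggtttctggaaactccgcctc
Bst2: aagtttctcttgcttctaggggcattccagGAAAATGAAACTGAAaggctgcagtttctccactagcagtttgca
The stretches lie at chr10:128270248-128270315 (plus strand) for Stat2, chr19:34640775-34640843 (plus) for Ifit1, chr19:34583397-34583465 (plus) for Ifit3 and chr19:34607793-34607861 (plus) for Ifit3b. Those on the minus strand lie at chr2:62646329-62646397 for Ifih1, chr1:173741812-173741880 for Ifi207, chr5:120907526-120907575 for Oas1a, chr5:120777690-120777764 for Oas3, chr4:156200846-156200926 for Isg15 and chr8:71537558-71537632 for Bst2. The capitals of Isg15 cover 58 to 78 bases before the RefSeq start, those of Oas3 61 to 75 and those of Oas1a 6 to 20, each a run of overlapping repeats. The printed stretches of Ifit3 and Ifit3b were identical. A match describes letters in a window and does not show that a factor bound there.

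Of the 46 members, 42 rose in ICH against sham and 44 fell in ICH+P7C3-A20 against ICH, by edgeR. The 42 that rose after hemorrhage were all among the 44 that were lower with the compound. In ICH against sham no member was called lower, the median log2 change of the members was 1.50 and that of all genes tested 0.00. Of all genes tested, 15.6% were called higher in that comparison. At an unadjusted p under 0.05 the number of members was 43, against 8019 of the 21900 genes tested. DESeq2 also called 42 members higher and 0 lower. In ICH+P7C3-A20 against ICH no member was called higher, all 46 changes were negative, and their median was -1.72 against -0.01 for all genes. Of all genes, 6.05% were called lower there. All 46 had an unadjusted p under 0.05, against 5316 of the 21900 genes tested. DESeq2 also called 44 members lower and 0 higher. These comparisons share the ICH libraries, so a member high in ICH is pushed up in the former and down in the latter by the same values. Over all genes, limma on quantile-normalized FPKM called 2832 higher and 3166 lower in ICH against sham, where edgeR called 3418 and 2283, and edgeR on library totals called 302 higher and 1248 lower in ICH+P7C3-A20 against ICH, where TMM scaling gave 590 and 1324. Under these scalings the members were called 38 higher and 0 lower, and 0 higher and 44 lower, respectively.

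**Figure D1:**
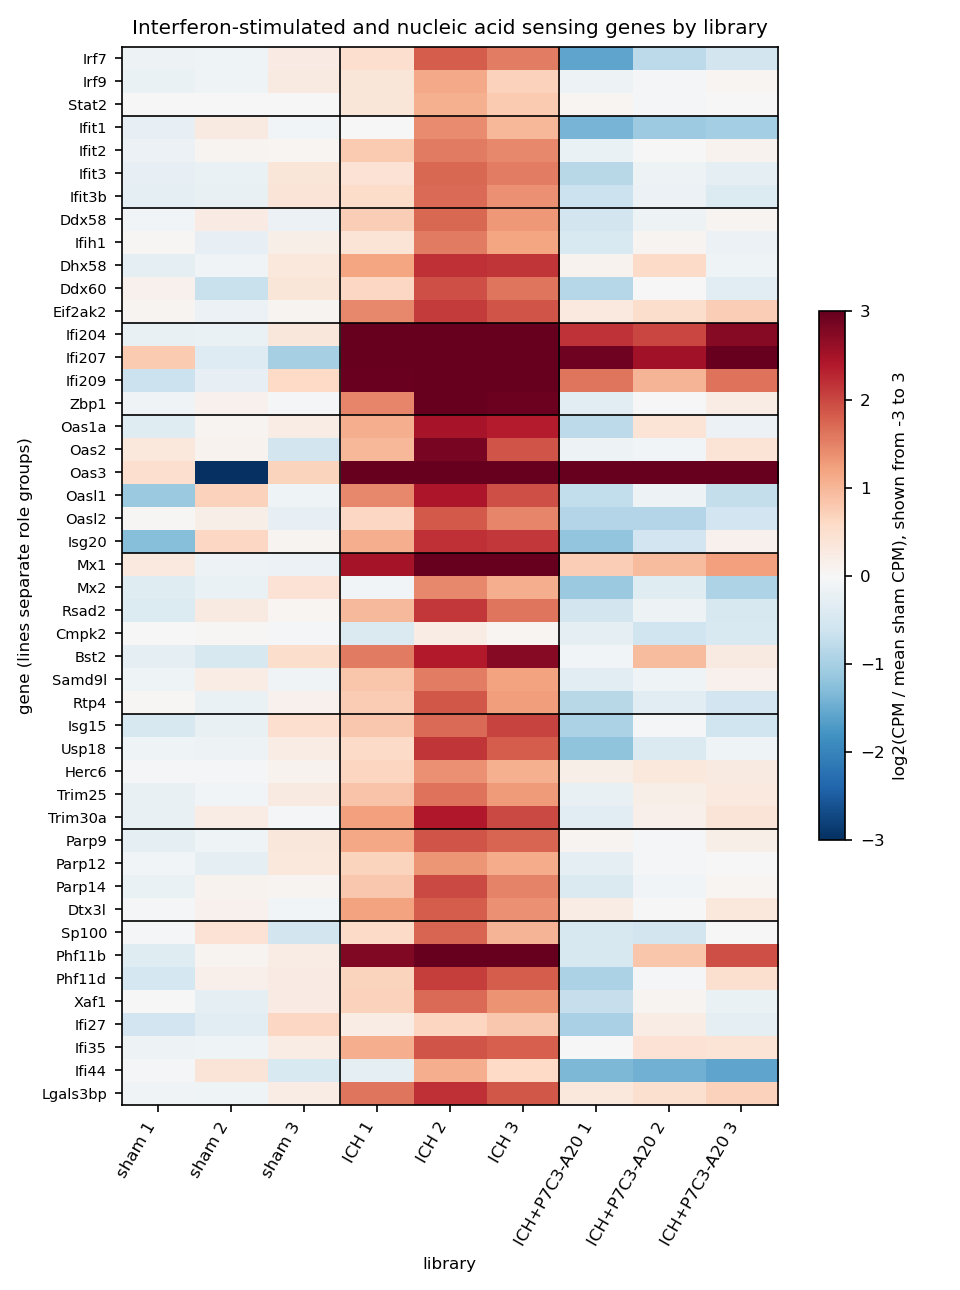
Level of each member in each library as log2 of CPM over the mean of the sham libraries, shown from -3 to 3, with role groups separated by horizontal lines. The group mean is highest in ICH for 45 of 46 members, ICH 1 is the palest ICH column, and the ICH+P7C3-A20 columns are near white or blue except for genes such as Ifi204, Ifi207 and Oas3. Oas3 in sham 2 had a count of 0 and is drawn at the end of the scale.

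The ICH libraries differed among themselves in these genes. ICH 1 was the lowest ICH library for all 46 members, whereas it was lowest for 32.3% of all genes tested. ICH 2 was the highest for 43 members, against 33.4% of all genes. In the treated group, ICH+P7C3-A20 1 was the lowest library for 36 members, against 39.5% of all genes. The median log2 level of the members relative to the sham mean was 0.80 in ICH 1, 1.88 in ICH 2 and 1.58 in ICH 3. It was -0.15, -0.11 and 0.19 in the sham libraries and -0.39, -0.02 and 0.06 in the ICH+P7C3-A20 libraries, so by this median each ICH library stood above every other library. By CPM, every ICH library lay above every sham library for 41 members, against 23.3% of all genes. Every ICH+P7C3-A20 library lay below every ICH library for 44 members, against 18.5% of all genes. By FPKM the former number was 39, because the FPKM of Irf9 and Ifit3 in ICH 1 did not exceed that in sham 3. Left out in turn, the libraries gave 35 to 43 members called higher in ICH against sham, lowest without ICH 2. For ICH+P7C3-A20 against ICH the calls were 27 without ICH 2, 34 without ICH 3, 32 without ICH+P7C3-A20 1 and 45 without ICH 1. All 46 changes stayed negative in each of these fits.

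Summed markers of several cell types also differed between the groups, not all in the direction of the members. The summed CPM of 10 microglia markers was 368 to 435 in sham, 1637 to 1738 in ICH and 689 to 1123 in ICH+P7C3-A20, with none at 0 in any group. All 10 were called higher in ICH than in sham. All 10 were also called higher in ICH+P7C3-A20 than in sham, a count that fell to 6 without sham 1 or ICH+P7C3-A20 3. Of all genes tested, 15.6% and 4.58% were called higher in these comparisons, respectively. ICH 1, with the lowest member levels, had a microglia sum of 1682, between ICH 3 at 1637 and ICH 2 at 1738. The sum of 11 monocyte and macrophage markers was 12.8 to 15 in sham, 360 to 493 in ICH and 67.3 to 143 in ICH+P7C3-A20. By library it was 360 in ICH 1, 493 in ICH 2 and 365 in ICH 3, so highest in the same library as the members' median. ICH 1 and ICH 3 were nearly equal in this sum, whereas the members' median was 0.80 in ICH 1 and 1.58 in ICH 3. Of these markers, 11 were called higher in ICH and 8 in ICH+P7C3-A20, each against sham. In ICH+P7C3-A20 against ICH, 6 of the 10 microglia markers and 9 of the 11 monocyte and macrophage markers fell, or 2 and 5 without ICH 2. The sum of 10 neutrophil markers was 8.4 to 10 in sham, 39.6 to 69.6 in ICH and 21.6 to 40 in ICH+P7C3-A20, with Ly6g at 0 in sham and ICH, and Cxcr2 at 0 in sham. Plasmacytoid dendritic cell markers, 8 in number, summed to 116 to 159 in sham, 218 to 242 in ICH and 204 to 227 in ICH+P7C3-A20. That list shares Siglech with the microglia list and holds Irf8, a factor of myeloid cells, so its sum is not specific to these cells. Astrocyte markers, 7 in number, summed to 3199 to 3322, 5790 to 6967 and 5004 to 5908 in the same order. Neuron markers, 9 in number, summed to 5044 to 5302, 3126 to 3405 and 4175 to 6716, the highest being ICH+P7C3-A20 1, whose 7 oligodendrocyte markers had the lowest sum of any library at 5647. The 7 oligodendrocyte markers otherwise summed to 9159 to 15522, and 7 endothelial markers to 178 to 208 in sham, 333 to 358 in ICH and 244 to 300 in ICH+P7C3-A20. The 8 red blood cell markers summed to 113 to 175 in all libraries, but the 4 globin genes among them were called higher in ICH than in sham. The globin gene Hbb-bs had FPKM values of 4.49, 11 and 4.61 in sham, 18.1, 30.5 and 36.7 in ICH, then 4.66, 17.6 and 11.1 in ICH+P7C3-A20. Its change was 2.01 ± 0.48 (adjusted p = 0.0121) in ICH, a call that ended without sham 1 or sham 3, and -1.34 ± 0.47 (adjusted p = 0.11) with the compound. No marker of this list was called with the compound, and 5 of 7 tested had an unadjusted p under 0.05, against 5316 of 21900 genes. The 11 lymphocyte and natural killer cell markers summed to 52.6 to 75.3, 37.4 to 46.5 and 26.6 to 46.5, with Cd8a, Nkg7 and Ncr1 at 0 in sham, Klrb1c in ICH, and Ms4a1 and Ncr1 at 0 in ICH+P7C3-A20. Mitochondrial genes took 9.14% to 18.5% of counts, lowest in sham 3 (9.14%), ICH 3 (9.74%) and ICH+P7C3-A20 2 (10.4%). The same libraries had the highest TMM factors, 1.042, 1.102 and 1.093, a scaling that CPM has and the FPKM values do not. In bulk tissue, fewer cells of a type and less RNA per cell cannot be told apart, and the part of cell numbers in the members' changes was not tested.

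**Figure D2:**
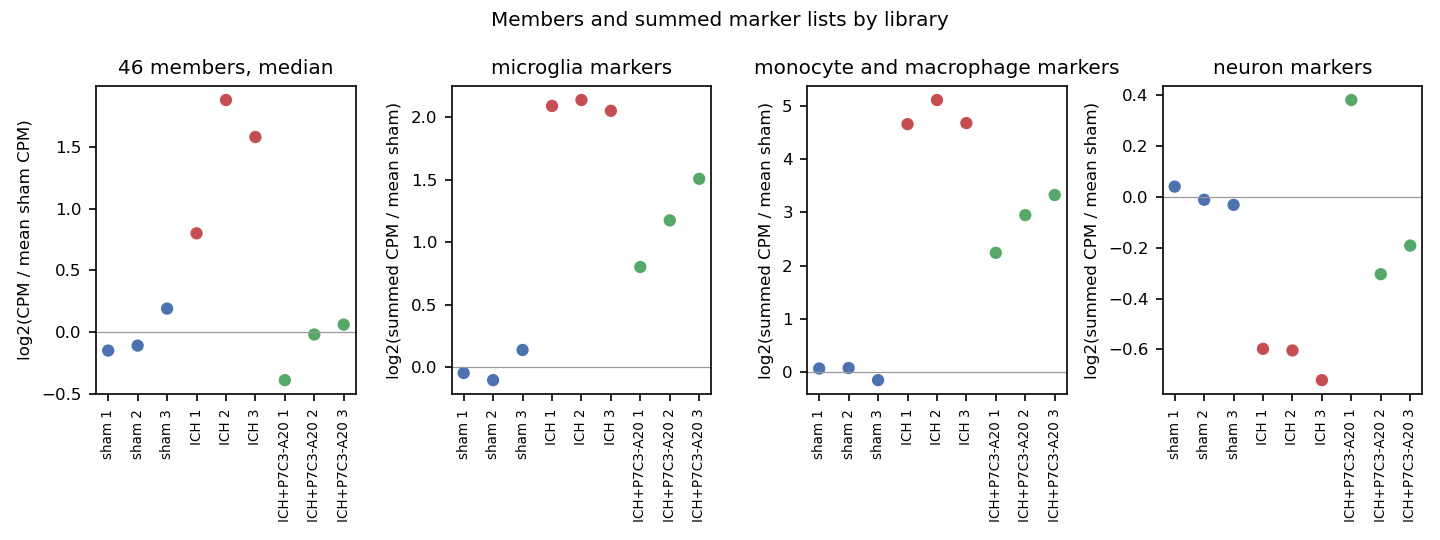
The median member level and the summed CPM of microglia, monocyte and macrophage, and neuron markers in each of 9 libraries, each as log2 relative to the sham mean. Member levels run from 0.80 to 1.88 in the ICH libraries, while the microglia sums of the same libraries lie close together. The monocyte and macrophage sum is, like the member level, lowest in ICH 1 and highest in ICH 2. In ICH+P7C3-A20 the members' median is near the sham level while the microglia and monocyte sums remain above it.

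The 3 transcription factors of the response rose in ICH and fell with the compound. Stat2 (ENSMUSG00000040033, chromosome 10, 128270559 to 128292849), a subunit of the interferon-activated complex, had FPKM values of 4.72, 4.83 and 5.59 in sham, 6.67, 10.3 and 9.71 in ICH, then 4.82, 5.54 and 4.69 in ICH+P7C3-A20. Every ICH value of Stat2 was above every other value, and the sham and ICH+P7C3-A20 ranges overlapped. Its log2 change was 0.77 ± 0.15 (adjusted p = 0.00377) in ICH against sham and -0.77 ± 0.15 (adjusted p = 0.0139) in ICH+P7C3-A20 against ICH. Irf7 (ENSMUSG00000025498, chromosome 7, 141262706 to 141266481), the factor that amplifies interferon production, was at 2.85, 2.96 and 4.35 in sham, 4.9, 11.4 and 10.9 in ICH, then 1.02, 2.21 and 2.15 in ICH+P7C3-A20. All ICH+P7C3-A20 values of Irf7 lay below the lowest sham value, and ICH 1 was far closer to sham than the other ICH libraries were. It changed by 1.38 ± 0.33 (adjusted p = 0.0111) and then by -2.29 ± 0.34 (adjusted p = 0.00684), the largest fall of the group. Irf9, the DNA-binding subunit of the complex, was at 3.14, 3.32 and 5 in sham, 5, 7.98 and 6.87 in ICH, then 3.12, 4.2 and 3.69 in ICH+P7C3-A20. ICH 1 equalled sham 3 on this scale, and the changes were 0.77 ± 0.19 (adjusted p = 0.0133) and -0.81 ± 0.19 (adjusted p = 0.028). Calls ended in ICH against sham for Irf9 (without sham 1 or ICH 2, adjusted p = 0.0546 to 0.0572), and in ICH+P7C3-A20 against ICH for Irf9 (without ICH 2 and 3 or ICH+P7C3-A20 1, 2 and 3, adjusted p = 0.0534 to 0.105) and Stat2 (without ICH 2 and 3, adjusted p = 0.0507 to 0.0523).

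All 4 members of the IFIT family, which bind foreign RNA through tetratricopeptide repeats, rose in ICH and fell with the compound. Ifit3 (ENSMUSG00000074896, chromosome 19, 34583531 to 34588731) had the highest level of the family, with FPKM values of 8.95, 9.36 and 15.7 in sham, 15.4, 35.8 and 36.4 in ICH, then 5.76, 11.4 and 8.67 in ICH+P7C3-A20. ICH 1 was level with sham 3, and ICH 2 and ICH 3 were far above both. Ifit3b, its neighbouring copy, was at 4, 4.2 and 7.32 in sham, 7.67, 15.9 and 14.7 in ICH, then 2.97, 5.15 and 3.61 in ICH+P7C3-A20. The longest Ifit3 transcript shares 97.4% of its length with Ifit3b at 95% identity or more, so their reads cannot be fully told apart, and the values of either alone are uncertain. Their changes were 1.34 ± 0.32 (adjusted p = 0.0115) and 1.28 ± 0.28 (adjusted p = 0.00716) in ICH, then -1.73 ± 0.32 (adjusted p = 0.0126) and -1.68 ± 0.28 (adjusted p = 0.00856) with the compound. Ifit2 (ENSMUSG00000045932, chromosome 19, 34550694 to 34576419), an RNA-binding partner in IFIT complexes, was at 2.5, 3.01 and 3.4 in sham, 5.27, 8.47 and 9.02 in ICH, then 2.38, 3.37 and 3 in ICH+P7C3-A20. Its ICH values stood clear of both other groups, with changes of 1.31 ± 0.19 (adjusted p = 6.60e-04) and -1.33 ± 0.19 (adjusted p = 0.00676). Ifit1, which binds the ends of uncapped or incompletely capped RNA, was at 2.74, 3.93 and 3.55 in sham, 3.49, 8.86 and 7.54 in ICH, then 1.18, 1.82 and 1.58 in ICH+P7C3-A20. In ICH 1 its level was within the sham range, and in ICH+P7C3-A20 every library was below the lowest sham value. Its rise was at the threshold, 0.92 ± 0.30 (adjusted p = 0.047), and its fall was -2.07 ± 0.31 (adjusted p = 0.007). The call ended in ICH against sham for Ifit1 (without sham 1, 2 and 3 or ICH 2 and 3, adjusted p = 0.056 to 0.208), and in ICH+P7C3-A20 against ICH for Ifit3 (without ICH+P7C3-A20 1, adjusted p = 0.0574).

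The cytoplasmic RNA helicase sensors and the RNA-activated kinase Eif2ak2 rose in ICH, 5 of 5, and fell with the compound, 5 of 5. Eif2ak2 (ENSMUSG00000024079, chromosome 17, 78852564 to 78882573), known as PKR, which halts translation on binding double-stranded RNA, was at 1.74, 1.48 and 2 in sham, 4.86, 7.15 and 7.15 in ICH, then 1.95, 2.82 and 2.74 in ICH+P7C3-A20. Its ICH libraries were the most even of this group, and the change was 1.83 ± 0.18 (adjusted p = 5.58e-05) in ICH and -1.30 ± 0.18 (adjusted p = 0.00636) with the compound. Ddx58 (ENSMUSG00000040296, chromosome 4, 40203773 to 40239825), which encodes the RNA sensor RIG-I, was at 1.27, 1.61 and 1.37 in sham, 2.44, 4.55 and 3.9 in ICH, then 0.896, 1.45 and 1.42 in ICH+P7C3-A20. Sham and ICH+P7C3-A20 overlapped and ICH lay above both, with changes of 1.30 ± 0.25 (adjusted p = 0.00308) and -1.49 ± 0.25 (adjusted p = 0.00815). Ifih1, the sensor MDA5 for long double-stranded RNA, was at 0.713, 0.6 and 0.911 in sham, 1.01, 2.1 and 1.87 in ICH, then 0.492, 0.883 and 0.614 in ICH+P7C3-A20. ICH 1 was only just above sham 3 for Ifih1. Dhx58, the regulatory helicase LGP2, was at 0.583, 0.668 and 1.02 in sham, 1.76, 3.32 and 3.72 in ICH, then 0.738, 1.27 and 0.639 in ICH+P7C3-A20. It rose by 1.91 ± 0.31 (adjusted p = 0.00134), the most of the 4 helicases, and changed by -1.69 ± 0.31 (adjusted p = 0.0111) with the compound. Ddx60, a helicase reported to promote antiviral signalling, had the lowest level, 0.28, 0.162 and 0.383 in sham, 0.429, 1.01 and 0.924 in ICH, then 0.136, 0.309 and 0.203 in ICH+P7C3-A20. Ifih1 changed by 1.13 ± 0.27 (adjusted p = 0.0112) and -1.29 ± 0.27 (adjusted p = 0.0183), and Ddx60 by 1.49 ± 0.38 (adjusted p = 0.0161) and -1.84 ± 0.39 (adjusted p = 0.0188). Dhx58 overlaps an antisense gene over 2637 bases, and the strand setting of the counting was not given in the sources used here. Calls ended in ICH against sham for Ifih1 (without ICH 2, adjusted p = 0.0528) and Ddx60 (without sham 2 or ICH 2 and 3, adjusted p = 0.0511 to 0.0721), and in ICH+P7C3-A20 against ICH for Dhx58 (without ICH 2, adjusted p = 0.0519), Ifih1 (without ICH 2 and 3 or ICH+P7C3-A20 1, adjusted p = 0.0644 to 0.077) and Ddx60 (without ICH 2 and 3 or ICH+P7C3-A20 1 and 3, adjusted p = 0.0515 to 0.0794).

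The sensors of DNA and of left-handed nucleic acids had the largest median log2 change of any role group in ICH against sham, 4.14, and a median of -2.26 with the compound, equal to that of the oligoadenylate synthetase group. Ifi204 (ENSMUSG00000073489, chromosome 1, 173747293 to 173766943), a PYHIN protein of the nucleus and cytoplasm that binds DNA, was at 0.244, 0.246 and 0.419 in sham, 4.23, 9.86 and 7.78 in ICH, then 1.24, 1.38 and 1.9 in ICH+P7C3-A20. Even the lowest ICH library was far above every sham library, and ICH+P7C3-A20 lay between them with no overlap on either side. Its changes were 4.54 ± 0.37 (adjusted p = 1.55e-05) in ICH, -2.21 ± 0.32 (adjusted p = 0.00682) with the compound and 2.33 ± 0.34 (adjusted p = 0.00327) in ICH+P7C3-A20 against sham. Ifi207 (ENSMUSG00000073490, chromosome 1, 173723427 to 173741747), a relative in the same cluster, was at 0.287, 0.128 and 0.0959 in sham, 4.42, 8.38 and 5.77 in ICH, then 1.21, 1.14 and 1.72 in ICH+P7C3-A20. The groups again formed 3 separate levels, with changes of 5.12 ± 0.47 (adjusted p = 3.53e-05), -2.13 ± 0.40 (adjusted p = 0.0127) and 2.99 ± 0.44 (adjusted p = 0.00347) in the same order. Ifi209 was at 0.12, 0.16 and 0.326 in sham, 1.59, 3.97 and 2.59 in ICH, then 0.551, 0.457 and 0.568 in ICH+P7C3-A20. It followed the same order of groups, with 3.74 ± 0.44 (adjusted p = 1.54e-04) and -2.31 ± 0.41 (adjusted p = 0.00974), but against sham the ICH+P7C3-A20 value of 1.43 ± 0.41 (adjusted p = 0.0805) missed the threshold. Zbp1, the sensor of Z-form nucleic acids that can start necroptosis, was at 0.531, 0.638 and 0.648 in sham, 1.73, 5.16 and 5.2 in ICH, then 0.439, 0.695 and 0.662 in ICH+P7C3-A20. For Zbp1 the ICH+P7C3-A20 libraries were back within and around the sham range, with changes of 2.68 ± 0.37 (adjusted p = 5.02e-04) and -2.69 ± 0.38 (adjusted p = 0.0064), and -0.01 ± 0.36 (adjusted p = 0.991) against sham. Over 20% of the longest transcript was shared with another gene for Ifi204 (Ifi211, 59.3%) and Ifi209 (Ifi214, 100%), so their reads may be divided among copies. Without sham 1 the change of Ifi207 in ICH against sham was 5.77 and in ICH+P7C3-A20 against sham 3.64, and its call with the compound ended for Ifi207 (without ICH 2 or ICH+P7C3-A20 1, adjusted p = 0.058 to 0.0588). Without sham 3 Ifi209 was called higher in ICH+P7C3-A20 than in sham (1.86, adjusted p = 0.0348).

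**Figure D3:**
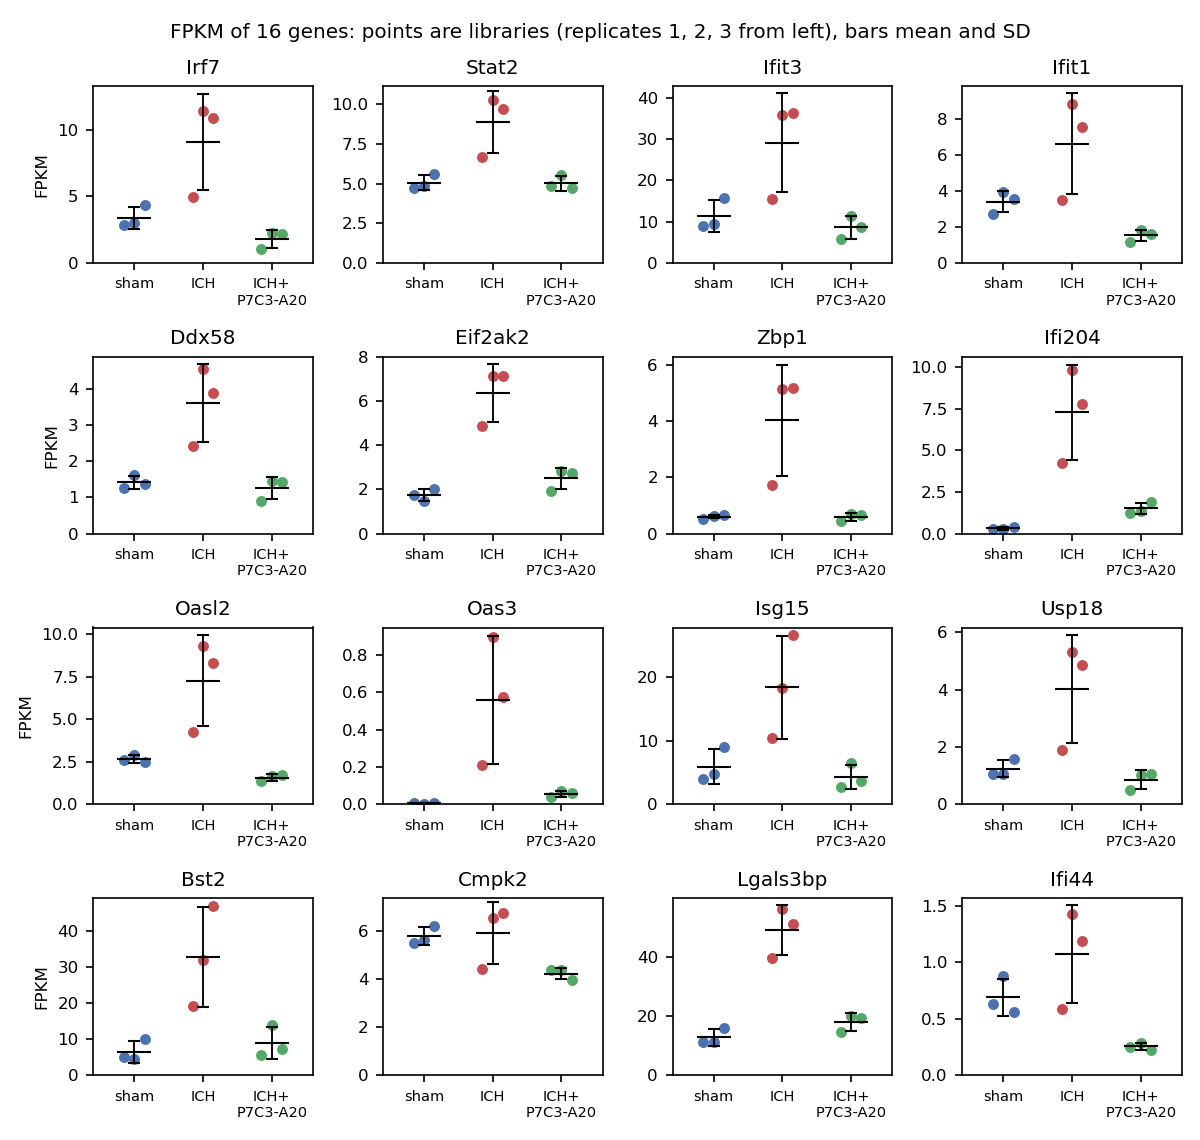
FPKM of 16 members in the 3 groups, with 1 point per library and bars for the mean and SD, each panel on its own linear axis from 0. Ifi204 forms 3 separate levels, Zbp1 and Stat2 are near the sham range in ICH+P7C3-A20, genes such as Irf7, Ifit1, Oasl2 and Ifi44 lie below it, and the ICH and sham values of Cmpk2 overlap.

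Of the oligoadenylate synthetase family, which makes the second messenger that activates RNase L, the 5 genes in the set rose in ICH and fell with the compound, as did the exonuclease Isg20. Oas1b and Oas1c, relatives outside the set, were called in neither comparison, with 1.11 ± 0.50 (adjusted p = 0.138) and 0.32 ± 0.49 (adjusted p = 0.698) in ICH. Oasl2 (ENSMUSG00000029561, chromosome 5, 114896936 to 114912234), an OAS-like protein, was at 2.62, 2.92 and 2.49 in sham, 4.23, 9.3 and 8.31 in ICH, then 1.34, 1.67 and 1.7 in ICH+P7C3-A20. All ICH+P7C3-A20 values were below the lowest sham value, as for Irf7 and Ifit1, and the changes were 1.39 ± 0.26 (adjusted p = 0.00279) and -2.16 ± 0.26 (adjusted p = 0.00596). Oas1a (ENSMUSG00000052776, chromosome 5, 120896256 to 120907521), an active synthetase, was at 1.01, 1.39 and 1.73 in sham, 2.99, 7.33 and 7.75 in ICH, then 0.732, 2.04 and 1.12 in ICH+P7C3-A20. Its ICH values were apart from both other groups, with changes of 2.09 ± 0.39 (adjusted p = 0.00295) and -2.19 ± 0.39 (adjusted p = 0.0101). Oas1a shares 100% of its longest transcript with Oas1g at 95% identity or more, so their reads cannot be fully told apart. Oas3 (ENSMUSG00000032661, chromosome 5, 120753098 to 120777661), the synthetase for long RNA, was at 0.00564, 0 and 0.00695 in sham, 0.212, 0.895 and 0.573 in ICH, then 0.0364, 0.0685 and 0.0603 in ICH+P7C3-A20. It was nearly absent in sham, with 3, 0 and 4 counts, against 102, 427 and 264 in ICH, then 17, 35 and 29 in ICH+P7C3-A20. It was the only member with fewer than 10 counts in a sham library and was tested because of its counts in the injured groups. Its change in ICH was the largest of the 46 members, 6.82 ± 0.78 (adjusted p = 1.26e-04), on 7 sham counts in all, and it was -3.27 ± 0.60 (adjusted p = 0.0114) with the compound and 3.55 ± 0.77 (adjusted p = 0.0243) in ICH+P7C3-A20 against sham. Oas2 was at 0.679, 0.598 and 0.434 in sham, 1.17, 4.02 and 2.38 in ICH, then 0.482, 0.616 and 0.714 in ICH+P7C3-A20. ICH 2 was far above the other ICH libraries for Oas2, and the changes were 2.10 ± 0.42 and -2.02 ± 0.42. Oasl1, which restrains translation of Irf7 RNA, was at 0.25, 0.91 and 0.589 in sham, 1.63, 3.07 and 2.49 in ICH, then 0.321, 0.597 and 0.332 in ICH+P7C3-A20. It had widely spread sham values and changes of 1.99 ± 0.44 and -2.50 ± 0.45. Isg20, an RNA exonuclease, was at 0.19, 0.719 and 0.569 in sham, 1.09, 2.23 and 2.42 in ICH, then 0.192, 0.368 and 0.502 in ICH+P7C3-A20. Its changes were 1.88 ± 0.51 (adjusted p = 0.0196) and -2.32 ± 0.52 (adjusted p = 0.0227). Without ICH 2 the changes were 6.22 for Oas3 and 1.51 for Oas2 in ICH against sham, and -2.65 and -1.41 with the compound. Calls ended in ICH against sham for Isg20 (without sham 1 or ICH 2 and 3, adjusted p = 0.0538 to 0.0706), in ICH+P7C3-A20 against ICH for Oas3 (without ICH 2, adjusted p = 0.058), Oas2 (without ICH 2 or ICH+P7C3-A20 1, adjusted p = 0.0655 to 0.0743) and Isg20 (without ICH 2 and 3 or ICH+P7C3-A20 1 and 2, adjusted p = 0.0522 to 0.0841), and in ICH+P7C3-A20 against sham for Oas3 (without sham 1 and 2 or ICH+P7C3-A20 2 and 3, adjusted p = 0.0568 to 0.0807).

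Of the 7 antiviral effectors, 5 rose in ICH and 6 fell with the compound, and Cmpk2 did neither. Bst2 (ENSMUSG00000046718, chromosome 8, 71534255 to 71537456), tetherin, which holds virus particles at the cell surface, was at 4.97, 4.36 and 10 in sham, 19.2, 31.9 and 46.9 in ICH, then 5.54, 13.9 and 7.11 in ICH+P7C3-A20. ICH 3 was the highest and the ICH+P7C3-A20 libraries overlapped sham, with changes of 2.30 ± 0.37 (adjusted p = 0.0014) and -1.86 ± 0.37 (adjusted p = 0.0152). Mx1 (ENSMUSG00000000386, chromosome 16, 97447035 to 97462907), a dynamin-like GTPase, was at 0.301, 0.218 and 0.249 in sham, 1.52, 3.97 and 2.49 in ICH, then 0.404, 0.579 and 0.57 in ICH+P7C3-A20. In this group of genes it rose most, by 3.30 ± 0.37 (adjusted p = 1.16e-04), and after a change of -2.31 ± 0.35 (adjusted p = 0.00731) its ICH+P7C3-A20 libraries were still all above sham, with 0.99 ± 0.35 (adjusted p = 0.163) for that comparison, which missed the threshold. Mx2 was at 0.612, 0.709 and 1.25 in sham, 0.817, 2.23 and 2.02 in ICH, then 0.36, 0.741 and 0.412 in ICH+P7C3-A20. ICH 1 was inside the sham range, and the change of 0.95 ± 0.39 (adjusted p = 0.099) was not called, while the fall with the compound, -1.71 ± 0.40 (adjusted p = 0.0261), was. The deposited table gives polymorphic pseudogene among the transcript types of Mx1 and Mx2, with protein coding also given for Mx1 and not for Mx2, and 34% of the longest Mx2 transcript is shared with Mx1. Rsad2, viperin, which makes a chain-terminating nucleotide, was at 0.628, 1.02 and 0.994 in sham, 1.77, 3.69 and 3 in ICH, then 0.548, 0.894 and 0.595 in ICH+P7C3-A20. All ICH values were higher than all others, and the changes were 1.64 ± 0.29 (adjusted p = 0.00222) and -2.02 ± 0.30 (adjusted p = 0.00682). Cmpk2 (ENSMUSG00000020638, chromosome 12, 26469204 to 26479837), the mitochondrial nucleotide kinase encoded beside Rsad2, was at 5.53, 5.65 and 6.22 in sham, 4.44, 6.58 and 6.77 in ICH, then 4.39, 4.37 and 3.96 in ICH+P7C3-A20. The ICH libraries lay on both sides of sham, and the ICH+P7C3-A20 libraries were all just below ICH 1 and all below sham by FPKM. Neither -0.02 ± 0.16 (adjusted p = 0.962) in ICH nor -0.42 ± 0.16 (adjusted p = 0.129) with the compound passed the threshold, and the sign of the former turned with library totals as the scaling (0.05), with limma on log2 FPKM before quantile normalization (0.01) and without ICH 1 (0.15). Samd9l, a translation-restricting antiviral factor, was at 1.06, 1.36 and 1.24 in sham, 2.25, 3.41 and 3.13 in ICH, then 0.906, 1.27 and 1.26 in ICH+P7C3-A20. Rtp4, an interferon-induced receptor-transporting protein, was at 3.56, 3.07 and 4.37 in sham, 6.34, 12.9 and 9.72 in ICH, then 1.88, 3.3 and 2.3 in ICH+P7C3-A20. Samd9l changed by 1.22 ± 0.20 (adjusted p = 0.00153) and -1.31 ± 0.20 (adjusted p = 0.00731), and Rtp4 by 1.37 ± 0.26 (adjusted p = 0.00301) and -1.93 ± 0.26 (adjusted p = 0.00636). All ICH libraries were above the rest for both genes, and by CPM, not FPKM, every ICH+P7C3-A20 library of Rtp4 was below sham. Rtp4 overlaps Gm45338 over 39791 bases on the same strand. Calls ended with the compound for Bst2 (without ICH 2 and 3 or ICH+P7C3-A20 1, adjusted p = 0.055 to 0.068) and Mx2 (without ICH 2 and 3 or ICH+P7C3-A20 1 and 3, adjusted p = 0.0748 to 0.105), and Mx2 was called higher in ICH without ICH 1 (1.28, adjusted p = 0.0231).

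The ISG15 system, in which a ubiquitin-like protein is joined to other proteins, and 2 further ubiquitin ligases rose in ICH with 5 of 5 members and fell with 5 of 5. Isg15 (ENSMUSG00000035692, chromosome 4, 156199455 to 156200796), the modifier, was at 3.98, 4.77 and 9.02 in sham, 10.4, 18.3 and 26.6 in ICH, then 2.75, 6.47 and 3.63 in ICH+P7C3-A20. ICH 1 was only slightly above sham 3, and ICH+P7C3-A20 overlapped sham, with changes of 1.60 ± 0.37 (adjusted p = 0.00888) and -2.07 ± 0.37 (adjusted p = 0.0105). Usp18, the protease that removes ISG15 and dampens receptor signalling, was at 1.07, 1.07 and 1.59 in sham, 1.88, 5.33 and 4.87 in ICH, then 0.483, 1.03 and 1.06 in ICH+P7C3-A20. Its changes were 1.65 ± 0.39 (adjusted p = 0.00979) and -2.17 ± 0.39 (adjusted p = 0.0107), close to those of Isg15. Herc6, the mouse ligase for ISG15, was at 0.775, 0.779 and 1 in sham, 1.37, 2.14 and 1.99 in ICH, then 0.881, 1.19 and 0.961 in ICH+P7C3-A20. It moved less, by 1.06 ± 0.18 (adjusted p = 0.00155) and -0.81 ± 0.18 (adjusted p = 0.0211). Trim25, the ligase that activates RIG-I, was at 1.59, 1.78 and 2.58 in sham, 3.64, 5.85 and 5.29 in ICH, then 1.54, 2.53 and 2.27 in ICH+P7C3-A20. It showed the same order of groups, with 1.28 ± 0.22 (adjusted p = 0.00162) and -1.18 ± 0.22 (adjusted p = 0.011). Trim30a (ENSMUSG00000030921, chromosome 7, 104409025 to 104465193), a ligase that restrains NF-kappaB signalling, was at 1.44, 2.01 and 1.9 in sham, 4.28, 9.09 and 7.83 in ICH, then 1.29, 2.26 and 2.18 in ICH+P7C3-A20. It had the largest rise of these 5, 1.94 ± 0.29 (adjusted p = 6.94e-04), followed by -1.85 ± 0.29 (adjusted p = 0.00731). Isg15 shares 63.8% of its longest transcript with AC151275.1 and Herc6 26.7% with Gm45193, so these 2 are uncertain to that extent. Calls with the compound ended for Herc6 (without ICH 2 and 3 or ICH+P7C3-A20 1 and 3, adjusted p = 0.0523 to 0.0891) and Trim25 (without ICH 2, adjusted p = 0.0501).

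The ADP-ribosyltransferases and their ligase partner rose, 4 of 4, and fell, 4 of 4. Parp12 (ENSMUSG00000038507, chromosome 6, 39086410 to 39118349), which modifies proteins at stress granules and the Golgi, was at 2.76, 2.4 and 4.18 in sham, 5.04, 7.5 and 7.41 in ICH, then 2.34, 3.43 and 2.85 in ICH+P7C3-A20. ICH 1 was nearest to the sham range, whose highest value was sham 3, and the changes were 1.06 ± 0.20 (adjusted p = 0.00281) and -1.17 ± 0.20 (adjusted p = 0.00855). Parp9 (ENSMUSG00000022906, chromosome 16, 35938470 to 35972605) was at 0.999, 1.11 and 1.76 in sham, 2.92, 4.56 and 4.78 in ICH, then 1.24, 1.42 and 1.35 in ICH+P7C3-A20. Dtx3l, the ubiquitin ligase with which PARP9 forms a complex, was at 0.887, 1.02 and 1.01 in sham, 2.32, 3.32 and 2.81 in ICH, then 1.04, 1.12 and 1.13 in ICH+P7C3-A20. These neighbours had similar levels and similar changes, 1.63 ± 0.22 (adjusted p = 3.78e-04) and -1.55 ± 0.22 (adjusted p = 0.0064) for Parp9, 1.49 ± 0.18 (adjusted p = 2.01e-04) and -1.31 ± 0.18 (adjusted p = 0.00636) for Dtx3l. They overlap by 682 bases on opposite strands, where reads of either could be counted for the other if strand was not used. Parp14, a macrodomain enzyme, was at 0.913, 1.13 and 1.27 in sham, 1.98, 4.21 and 3.46 in ICH, then 0.748, 1.17 and 1.08 in ICH+P7C3-A20. It changed by 1.51 ± 0.26 (adjusted p = 0.00177) and -1.65 ± 0.26 (adjusted p = 0.00734), and no leave-out of a single library in a comparison ended a call in this group.

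Of the 8 remaining members, 6 rose in ICH and 7 fell with the compound. Lgals3bp (ENSMUSG00000033880, chromosome 11, 118392751 to 118402092), a secreted galectin-binding glycoprotein, had the highest ICH levels of all 46 members, at 11.1, 11.1 and 16 in sham, 39.7, 56.2 and 51.1 in ICH, then 14.5, 20 and 19.3 in ICH+P7C3-A20. Its ICH libraries stood far above every other library, and the changes were 1.91 ± 0.17 (adjusted p = 2.49e-05) and -1.40 ± 0.16 (adjusted p = 0.00596). Ifi27 (ENSMUSG00000064215, chromosome 12, 103434211 to 103440239), a mitochondrial protein with apoptosis-linked roles, was at 8.93, 10.5 and 23.6 in sham, 16.7, 21.1 and 27.2 in ICH, then 6.54, 18.7 and 10.7 in ICH+P7C3-A20. Groups overlapped throughout, sham 3 being above ICH 1 and ICH 2, and neither 0.58 ± 0.35 (adjusted p = 0.278) nor -0.83 ± 0.35 (adjusted p = 0.181) was called. Ifi35 (ENSMUSG00000010358, chromosome 11, 101448407 to 101458698), a leucine zipper protein, was at 1.6, 1.64 and 2.4 in sham, 4.1, 6.69 and 7.28 in ICH, then 1.69, 2.84 and 2.31 in ICH+P7C3-A20. It rose and fell clearly, by 1.64 ± 0.25 (adjusted p = 7.86e-04) and -1.35 ± 0.24 (adjusted p = 0.0104). Ifi44 was at 0.63, 0.877 and 0.559 in sham, 0.587, 1.43 and 1.19 in ICH, then 0.252, 0.288 and 0.219 in ICH+P7C3-A20. ICH 1 was within the sham range and every ICH+P7C3-A20 library was below the lowest sham library. The change of 0.57 ± 0.33 (adjusted p = 0.251) in ICH was not called, whereas -2.02 ± 0.35 (adjusted p = 0.009) with the compound and, against sham, -1.45 ± 0.34 (adjusted p = 0.0363) were. Phf11b, a PHD finger gene, was at 0.353, 0.489 and 0.611 in sham, 3.43, 7.97 and 6.19 in ICH, then 0.315, 0.982 and 1.74 in ICH+P7C3-A20. Its ICH values were far above sham and its ICH+P7C3-A20 values ranged from below to above sham, with 3.55 ± 0.56 (adjusted p = 0.00108) and -2.48 ± 0.53 (adjusted p = 0.0196). Phf11d was at 0.281, 0.454 and 0.555 in sham, 0.698, 1.74 and 1.68 in ICH, then 0.202, 0.467 and 0.56 in ICH+P7C3-A20. Sp100, a scaffold of nuclear bodies, was at 1.33, 1.85 and 1.07 in sham, 2.18, 4.63 and 3.27 in ICH, then 0.946, 1.11 and 1.34 in ICH+P7C3-A20. Xaf1, which opposes the inhibitor of apoptosis XIAP, was at 1.39, 1.18 and 1.94 in sham, 2.5, 4.7 and 4.22 in ICH, then 0.848, 1.79 and 1.23 in ICH+P7C3-A20. For these 3 genes all ICH values were above all others, and the changes were 1.63 ± 0.43 (adjusted p = 0.0182) and -1.68 ± 0.43 (adjusted p = 0.0383) for Phf11d, 1.19 ± 0.31 (adjusted p = 0.0178) and -1.51 ± 0.32 (adjusted p = 0.0181) for Sp100, and 1.30 ± 0.27 (adjusted p = 0.00534) and -1.53 ± 0.27 (adjusted p = 0.00997) for Xaf1. Phf11b shares 73% of its longest transcript with Phf11a. Without ICH+P7C3-A20 3 the change of Phf11b with the compound was -3.21. Calls ended in ICH for Sp100 (without sham 1 and 3 or ICH 2, adjusted p = 0.0543 to 0.0795) and Phf11d (without sham 1 or ICH 2 and 3, adjusted p = 0.0584 to 0.0762), and with the compound for Sp100 (without ICH 2 or ICH+P7C3-A20 1, adjusted p = 0.0697 to 0.0838), Phf11b (without ICH 2 and 3, adjusted p = 0.0591 to 0.0796), Phf11d (without ICH 2 and 3 or ICH+P7C3-A20 1 and 2, adjusted p = 0.0739 to 0.138) and Ifi35 (without ICH 2, adjusted p = 0.0513). Without sham 3 Ifi27 was called higher in ICH (1.03, adjusted p = 0.0386).

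**Figure D4:**
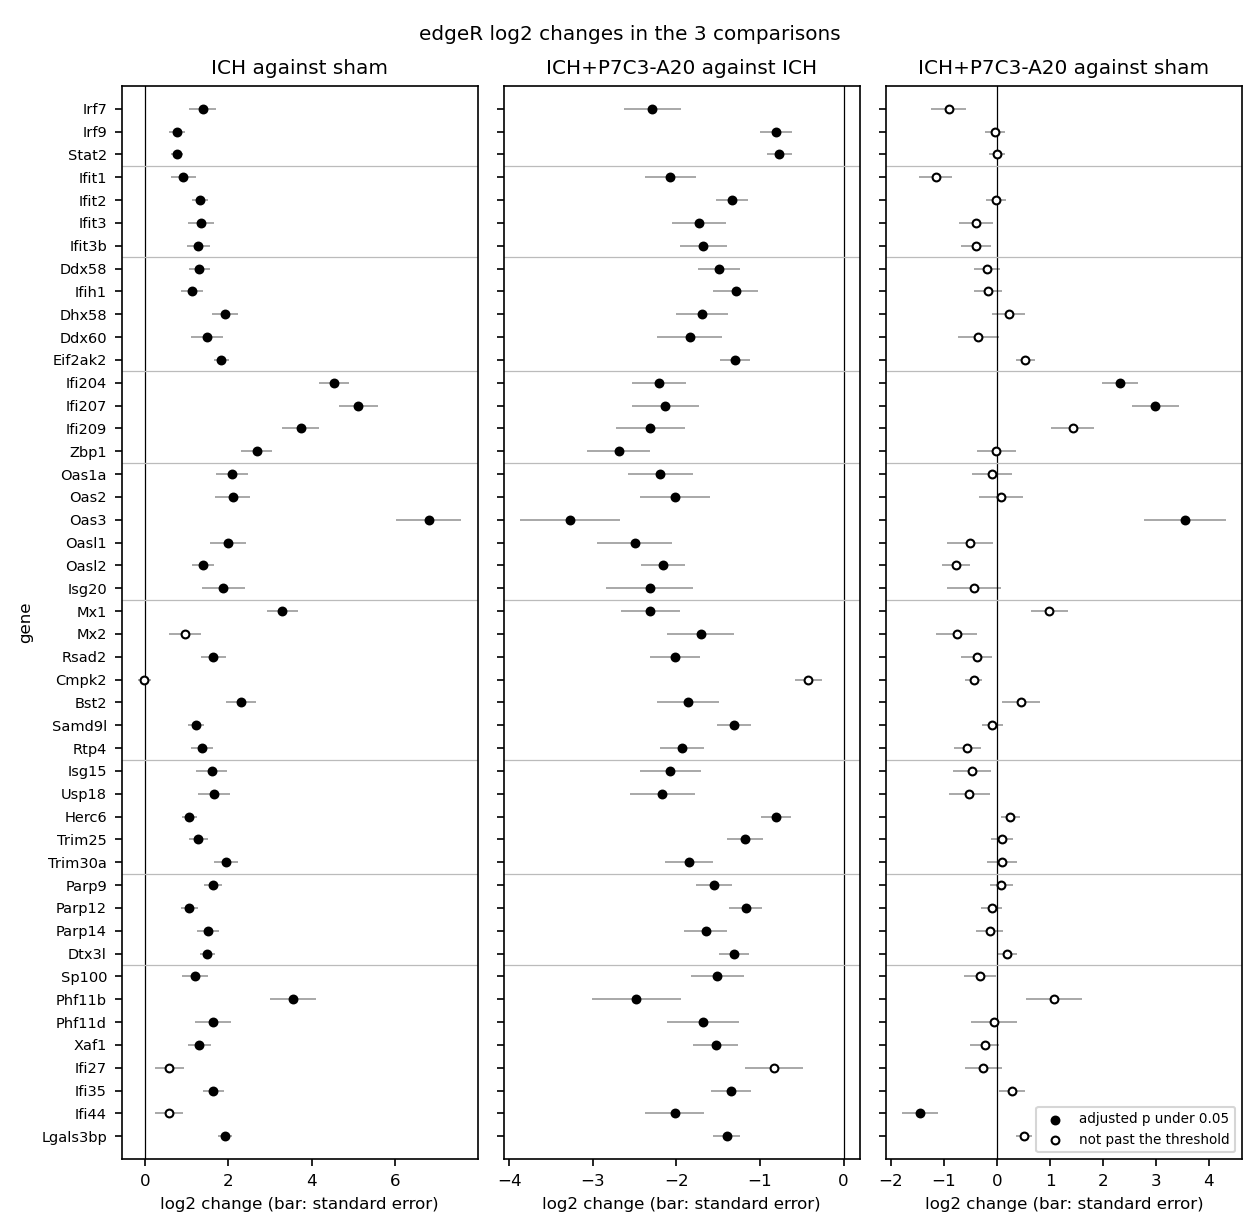
Log2 changes of the 46 members with standard errors in each comparison, filled where the edgeR adjusted p was under 0.05 and open elsewhere, with role groups separated by lines and a separate axis for each panel. Changes in ICH against sham lie right of 0 except Cmpk2 at -0.02, those in ICH+P7C3-A20 against ICH all lie left of 0, and those in ICH+P7C3-A20 against sham lie on both sides.

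Set against sham, the ICH+P7C3-A20 libraries were called different for 4 of the 46 members, 3 higher and 1 lower. Of all genes tested, 5.32% were called in this comparison, in either direction. The members' median was -0.10 and that of all genes 0.03. The higher genes were Ifi204, Ifi207 and Oas3 and the lower gene was Ifi44, with the values given above. Oas3 had 7 counts over the sham group and was tested because of its counts in the injured groups. At an unadjusted p under 0.05 there were 12 members, against 3981 of the 21900 genes tested. DESeq2 called 8 members, against 2047 of the 34079 genes it fitted. limma on log2(FPKM + 1) called 1 member, against 332 of 21582 genes, and on quantile-normalized values 0 members. On log2(FPKM + 1) it gave 0.94 (adjusted p = 0.0964) for Ifi204, 0.07 (adjusted p = 0.894) for Oas3 and -0.43 (adjusted p = 0.271) for Ifi44. With only the compared groups fitted by edgeR, Oas3 had an adjusted p of 0.117. By CPM, 8 members had every ICH+P7C3-A20 library above every sham library, against 12.6% of all genes, and 6 members had every library below, against 7.84%. The 6 were Irf7, Ifit1, Oasl2, Cmpk2, Rtp4 and Ifi44. Among those not called, Irf7 had -0.91 ± 0.33 (adjusted p = 0.172), Ifit1 -1.16 ± 0.31 (adjusted p = 0.059), Oasl2 -0.77 ± 0.26 (adjusted p = 0.134), Rtp4 -0.56 ± 0.26 (adjusted p = 0.282) and Cmpk2 -0.44 ± 0.16 (adjusted p = 0.168). Of the members above sham by CPM, Eif2ak2 had 0.53 ± 0.18 (adjusted p = 0.139), Lgals3bp 0.51 ± 0.16 (adjusted p = 0.117) and Herc6 0.25 ± 0.18 (adjusted p = 0.53), none of them called. By FPKM, 6 members had every ICH+P7C3-A20 library above every sham library and 6 had every library below. Eif2ak2, Lgals3bp, Herc6 and Rtp4 were apart from sham by CPM only, and Usp18 and Dtx3l by FPKM only. By the sign of the edgeR change, 28 members were below sham and 18 above, against 10237 and 11659 of all genes tested. Without sham 2, sham 3 or ICH+P7C3-A20 1 the members split 23 and 23. A value that missed the threshold does not show equality with sham, and the call of Ifi44 ended for Ifi44 (without sham 1 and 2 or ICH+P7C3-A20 1, 2 and 3, adjusted p = 0.0598 to 0.142). Left out in turn, the libraries gave 2 to 6 members called.

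The 3 interferon ligand genes measured were barely detected. The interferon alpha, kappa and lambda genes looked up (Ifna1, Ifna2, Ifna4, Ifna5, Ifnk, Ifnl2 and Ifnl3) had no row of that name in the deposited table. Ifnb1, interferon beta, had 0 counts over the sham group, 3 over ICH and 0 over ICH+P7C3-A20, Ifng, interferon gamma, had 10, 0 and 0, and Ifne had 0 in each. A count of 0 in a library allows up to 3 counts, 0.0455 to 0.0625 CPM by library, by counting error alone. The receptor chains were measured well, and 5 of 6 tested ligand and receptor genes rose in ICH. Ifnar1 and Ifnar2, the chains of the type I receptor, rose by 0.42 ± 0.09 (adjusted p = 0.00476) and 1.30 ± 0.14 (adjusted p = 1.05e-04). Ifngr1 and Ifngr2, the chains of the interferon gamma receptor, rose by 1.19 ± 0.18 (adjusted p = 7.31e-04) and 0.78 ± 0.14 (adjusted p = 0.00264). Il10rb, a chain of the interferon lambda and interleukin-10 receptors, rose most, by 2.21 ± 0.16 (adjusted p = 8.07e-06), and its mean FPKM was 1.35 ± 0.191 in sham, 6.49 ± 0.199 in ICH and 3.11 ± 0.6 in ICH+P7C3-A20 (SD, n = 3). With the compound Ifnar2 fell by 0.79 ± 0.14 (adjusted p = 0.0105) and Il10rb by 1.02 ± 0.15 (adjusted p = 0.00684). The remaining receptor chains had -0.49 ± 0.17 (adjusted p = 0.106) for Ifngr1, -0.34 ± 0.14 (adjusted p = 0.175) for Ifngr2 and -0.17 ± 0.09 (adjusted p = 0.253) for Ifnar1, none of them called. Ifnlr1, the specific chain of the interferon lambda receptor, was low and not called, with 1.18 ± 0.67 (adjusted p = 0.235) in ICH. The call for Ifnar2 with the compound ended for Ifnar2 (without ICH 2, adjusted p = 0.0506).

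Of 13 further kinases, STATs and IRFs of the signal, 7 rose in ICH and 5 fell with the compound. Irf8 and Irf5, factors of myeloid cells, rose by 2.61 ± 0.16 (adjusted p = 6.31e-06) and 2.66 ± 0.26 (adjusted p = 5.33e-05), and Stat3 and Irf1 by 1.41 ± 0.14 (adjusted p = 4.64e-05) and 1.41 ± 0.23 (adjusted p = 0.00122). With the compound the changes were -1.34 ± 0.16 (adjusted p = 0.00596) for Irf8, -1.44 ± 0.25 (adjusted p = 0.00955) for Irf5, -0.90 ± 0.13 (adjusted p = 0.00684) for Stat3 and -1.14 ± 0.23 (adjusted p = 0.0147) for Irf1. Irf8 and Irf5 were still called higher than sham in ICH+P7C3-A20, at 1.27 ± 0.16 (adjusted p = 0.00127) and 1.22 ± 0.25 (adjusted p = 0.02), a call that ended for Irf5 (without sham 1 and 2 or ICH+P7C3-A20 2 and 3, adjusted p = 0.0514 to 0.0861). Of the receptor kinases, Tyk2 rose by 0.54 ± 0.10 (adjusted p = 0.00297) in ICH, whereas Jak1 and Jak2 had -0.03 ± 0.09 (adjusted p = 0.87) and -0.22 ± 0.11 (adjusted p = 0.166), neither of them called. The call with the compound ended for Irf1 (without ICH 2 and 3, adjusted p = 0.0567 to 0.0688).

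Among 22 tested sensors and adaptors outside the members, 17 rose in ICH and 10 fell with the compound. Tlr7, the endosomal receptor for single-stranded RNA, and Unc93b1, which carries such receptors to endosomes, rose by 2.91 ± 0.26 (adjusted p = 2.76e-05) and 2.26 ± 0.21 (adjusted p = 3.38e-05). Myd88, their adaptor, rose by 1.92 ± 0.19 (adjusted p = 5.92e-05) and Sting1, the adaptor of cytosolic DNA sensing, by 2.22 ± 0.24 (adjusted p = 8.53e-05). With the compound these 4 fell, with -1.15 ± 0.24 (adjusted p = 0.0184) for Tlr7, -1.07 ± 0.20 (adjusted p = 0.012) for Unc93b1, an adjusted p of 0.0123 for Myd88 (mean FPKM 1.49 ± 0.291 in sham, 5.84 ± 0.521 in ICH and 2.8 ± 0.716 in ICH+P7C3-A20) and -1.27 ± 0.23 (adjusted p = 0.0105) for Sting1, and all 4 remained called higher than sham, for Sting1 by 0.94 ± 0.23 (adjusted p = 0.0427). The call against sham ended for Sting1 (without sham 1 and 3 or ICH+P7C3-A20 2 and 3, adjusted p = 0.0881 to 0.172) and Myd88 (without sham 1 and 2 or ICH+P7C3-A20 3, adjusted p = 0.0578 to 0.0805). Cgas, the DNA sensor that signals to STING, was at 0.249, 0.462 and 0.306 in sham, 0.965, 1.16 and 1.3 in ICH, then 0.405, 0.345 and 0.361 in ICH+P7C3-A20. Its ICH+P7C3-A20 mean was close to sham, with changes of 1.69 ± 0.30 (adjusted p = 0.00199) and -1.55 ± 0.29 (adjusted p = 0.0126). The RNA-binding factor Zc3hav1 fell with the compound by 1.27 ± 0.23, the kinase Ikbke by 1.45 ± 0.26, the ligase Trim56 by 0.82 ± 0.20 and the DNA receptor Tlr9 by 0.99 ± 0.25. Oas1g fell by 2.90 ± 0.41, and its reads cannot be fully told apart from those of Oas1a. Tbk1, the kinase shared by these routes, had -0.11 ± 0.10 (adjusted p = 0.483) in ICH and 0.03 ± 0.10 (adjusted p = 0.914) with the compound, neither of them called. Without ICH 2 the number called lower with the compound was 2, and without ICH 3 or ICH+P7C3-A20 1 it was 7.

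Of 19 inhibitors of sensing and signalling, 6 rose in ICH, 1 fell and 3 fell with the compound. Socs3, an inhibitor of cytokine receptor kinases, had the largest rise, 4.81 ± 0.27 (adjusted p = 6.02e-06), with mean FPKM of 0.357 ± 0.0902 in sham, 10.4 ± 0.624 in ICH and 3.12 ± 1.22 in ICH+P7C3-A20 (SD, n = 3). Ptpn6, a phosphatase of blood cells, rose by 2.98 ± 0.23 (adjusted p = 1.33e-05), Samhd1, which depletes nucleotides, by 0.86 ± 0.15 (adjusted p = 0.00204) and Tnfaip3, a ubiquitin-editing enzyme, by 0.81 ± 0.19 (adjusted p = 0.0107). The 3 that fell with the compound were Socs3 at -1.70 ± 0.23 (adjusted p = 0.00636), Ptpn6 at -1.26 ± 0.22 (adjusted p = 0.00917) and Samhd1 at -0.85 ± 0.15 (adjusted p = 0.0101). Socs3 and Ptpn6 were still called higher than sham there, at 3.11 ± 0.26 (adjusted p = 2.02e-04) and 1.72 ± 0.22 (adjusted p = 0.00179). Adar, the enzyme that edits double-stranded RNA and limits its sensing, was the gene called lower in ICH, at -0.35 ± 0.10 (adjusted p = 0.0221). That call ended for Adar (without sham 2 or ICH 1 and 3, adjusted p = 0.0642 to 0.104). In the conjugation machinery of ISG15, its activating enzyme Uba7 and conjugating enzyme Ube2l6 rose by 1.31 ± 0.27 (adjusted p = 0.00495) and 1.81 ± 0.28 (adjusted p = 9.16e-04) and changed with the compound by -1.35 ± 0.27 (adjusted p = 0.0148) and -1.42 ± 0.27 (adjusted p = 0.0131). The general ubiquitin enzymes Uba1 and Ube2n had -0.07 ± 0.10 (adjusted p = 0.669) and -0.28 ± 0.11 (adjusted p = 0.0819) in ICH and were not called. Calls with the compound ended for Uba7 (without ICH 2 or ICH+P7C3-A20 1, adjusted p = 0.0534 to 0.0619) and Ube2l6 (without ICH 2, adjusted p = 0.0597).

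Of 51 other interferon-induced genes tested, 39 rose in ICH and 31 fell with the compound, with medians of 1.64 and -1.44. Ifi30, a lysosomal thiol reductase, rose by 4.72 ± 0.25 (adjusted p = 5.31e-06), the membrane protein Ifitm2 by 2.62 ± 0.18 (adjusted p = 7.67e-06), the chemokine Cxcl10 by 5.22 ± 0.39 (adjusted p = 9.32e-06) and the galectin Lgals9 by 2.42 ± 0.23 (adjusted p = 3.85e-05). These 4 fell with the compound by 1.86 ± 0.22, 1.44 ± 0.17, 2.27 ± 0.33 and 1.61 ± 0.22 respectively, and Ifi30, Ifitm2 and Cxcl10 were still called higher than sham. Ifi30 in ICH+P7C3-A20 was at 2.86 ± 0.24 against sham (adjusted p = 2.02e-04). The other PYHIN genes that fell were Ifi203 at -1.62 ± 0.44, Ifi205 at -2.84 ± 0.61, Ifi206 at -2.54 ± 0.60, Ifi208 at -2.42 ± 0.57, Ifi211 at -2.29 ± 0.45 and Ifi213 at -2.66 ± 0.59. Of the TRIM, SP and PHD finger families, Trim14 fell by 1.89 ± 0.33, Trim21 by 1.35 ± 0.25, Trim30d by 1.28 ± 0.28, Trim34a by 1.47 ± 0.23, Sp110 by 1.75 ± 0.21, Sp140 by 1.64 ± 0.32, Pml by 0.58 ± 0.16 and Phf11a by 4.36 ± 0.95. The immunoproteasome subunits Psmb8 and Psmb9 fell by 1.71 ± 0.29 and 1.48 ± 0.40, and Nlrc5, the activator of class I genes, by 2.27 ± 0.30. Ifitm3 was the gene of this list with the highest ICH level, at 18, 21.4 and 26 in sham, 67.6, 101 and 116 in ICH, then 18, 42.4 and 32.1 in ICH+P7C3-A20. It changed by 2.07 ± 0.25 (adjusted p = 1.80e-04) and -1.59 ± 0.25 (adjusted p = 0.00731). The rest that fell were Epsti1 (-1.75 ± 0.28), Shisa5 (-0.78 ± 0.13), Tor3a (-1.13 ± 0.18), Pnp (-0.99 ± 0.18), Ms4a4c (-2.56 ± 0.49), Parp10 (-1.45 ± 0.24), Ifi27l2a (-2.26 ± 0.50), Helz2 (-1.08 ± 0.24) and Rnf213 (-1.66 ± 0.29). Without ICH 2 the count with the compound was 16, and without ICH 3 it was 20. Over all 6 lists, 76 of 115 tested genes rose in ICH and 1 fell. With the compound 53 fell and 0 rose by edgeR, and DESeq2 called 63 lower and 0 higher. At an unadjusted p under 0.05 in either direction there were 80, against 5316 of the 21900 genes tested. In ICH+P7C3-A20, 19 were called higher than sham, where 4.58% of all genes tested were called higher. The 19 became 9 without sham 1 or ICH+P7C3-A20 3 and 12 without sham 2, and ranged from 13 to 23 without each of the other libraries. Their medians were 1.19, -0.90 and 0.28 in the 3 comparisons, beside 1.50, -1.72 and -0.10 for the 46 members. The lists were drawn up with earlier results of these data known, and without ICH 2 the 53 became 26.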

How the data were processed

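Polyadenylated RNA from 9 mouse brains was made into stranded libraries, per the labels' protocols. Per the submitters' processing notes, StringTie 1.3.4d, HISAT2 2.0.4 and cutadapt 1.9 were used. How counts were made, with which strand option and genome build, was not given in the sources used here. In 1 table the authors deposited, for 35112 genes, FPKM values (scaled by transcript length and library total) and whole-number estimated counts per library, per the file headers. Rounding changed none of the estimated counts. Groups came from the sample labels. The labels do not say how tissue was divided between samples, so p-values measure the spread between these 9 libraries.

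Genes were tested with edgeR 4.0.16 (R 4.3.3). Its filterByExpr, at a minimum count of 10 and a minimum total of 15, left 21900. Libraries were scaled by TMM, and quasi-likelihood F tests with robust dispersions used 1 mean per group over all 9 libraries, leaving 6 residual degrees of freedom. Tests were two-sided with Benjamini-Hochberg adjustment over all genes tested. CPM used TMM-scaled totals, and libraries were compared for overlap by CPM. All 46 members were tested, 45 of them with at least 10 counts in every sham library. The fit was tested on simulated counts.

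The members, the lists of other pathway genes and of cell type markers, and the tests were chosen with earlier results of these data known. All members are named. Values per library are given for those among the 2 highest or 2 clearest in their role group, called in ICH+P7C3-A20 against ICH, or with the extreme changes, which took in all 46. Of each pathway list, up to 4 genes with the smallest p in ICH against sham and every gene called in ICH+P7C3-A20 against ICH are named, and Adar, Cgas, Oas1b, Oas1c, the remaining receptor chains, the receptor kinases, Tbk1 and Ifitm3 were added after their values were seen. Some genes of the pathway and marker lists stand in the counts and sums but are not reported here by name. Alternatives were other filters and scalings, DESeq2 1.42.0, limma 3.58.1 on log2(FPKM + 1) or log2(FPKM + 0.1) computed from the deposited FPKM, a replicate block, fits of only the groups compared, and fits without each library in turn. Transcripts of GENCODE M21 were searched for shared sequence with blastn 2.17.0 (at least 95% identity over 100 bases). Promoter windows are RefSeq's (GRCm38.p6). Figures used matplotlib 3.10.9 (Python 3.11.15).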

Additional observations from a re-analysis of the deposited data

How the results depend on the processing

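Counts of calls varied both with the library left out and with the tool. Left out in turn, the libraries gave in ICH against sham 4075 to 6091 genes and 35 to 43 members called, in ICH+P7C3-A20 against ICH 571 to 2695 genes and 27 to 45 members, and in ICH+P7C3-A20 against sham 538 to 1434 genes and 2 to 6 members. limma on log2(FPKM + 1) without a filter called 3208 genes in ICH against sham, 961 genes and 29 members in ICH+P7C3-A20 against ICH, and 135 genes and 0 members in ICH+P7C3-A20 against sham. DESeq2 called 3402 genes in ICH+P7C3-A20 against ICH and 2047 genes and 8 members in ICH+P7C3-A20 against sham. limma on log2(FPKM + 0.1) called 1143 genes in ICH+P7C3-A20 against ICH and, against sham, 521 genes and 2 members, while log2(FPKM + 1) gave 332 genes and 1 member there, quantile normalization 481 genes and 0 members, and the compared groups alone 435 genes. The cause of these differences was not tested. The change of Cmpk2 in ICH against sham, -0.02, turned to 0.05 with library totals, to 0.01 with limma on log2(FPKM + 1), log2(FPKM + 0.1) and log2(FPKM + 1) without a filter, and ranged from -0.15 without ICH 2 to 0.15 without ICH 1. Of 920 values of single members under the alternatives in each comparison with ICH, 42 lost the call in ICH against sham and 74 in ICH+P7C3-A20 against ICH, and apart from Cmpk2 none turned sign. Members with few counts, above all Oas3 with 7 in sham, are limited by depth.

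Whether replicate numbers paired the samples could not be decided. The correlations of same-numbered deviations from the group means were 0.0855, 0.0575 and 0.205 for ICH and sham. They were 0.0736, -0.231 and -0.219 for ICH+P7C3-A20 and ICH, and 0.106, -0.0461 and -0.0298 for ICH+P7C3-A20 and sham. With so few libraries in each group, such correlations cannot exclude that same-numbered samples were handled together. With a replicate block, 42 members and 5326 genes were called in ICH against sham, 44 and 1697 in ICH+P7C3-A20 against ICH, and 6 and 944 in ICH+P7C3-A20 against sham.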
